A study of Homo sapiens with 6 samples.

Results

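The exocytosis machinery of insulin granules was described across the accessible regions of a human beta cell line. It was taken as 46 genes, named by symbol from the proteins that dock, prime and fuse secretory granules, out of 19663 protein-coding genes in GENCODE 44. A promoter region of a gene was a region that overlapped the window from 2 kb before to 2 kb after the start of any of its protein-coding transcripts. A distal region was any other region whose middle had its nearest protein-coding start site at the gene, within 100 kb. By these rules 78 promoter regions and 292 distal regions belonged to the 46 genes, together 370 of 108542 regions.

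Accessibility was profiled by ATAC-seq, in which a transposase inserts sequencing adapters into open DNA, in EndoC-βH3 cells. This single cell line carries immortalising transgenes that Cre recombinase can excise once 4-hydroxytamoxifen (4-OHT) activates it, and its genotype was given as WT for all libraries. The senescent group was 3 libraries of cells treated with 4-OHT for 3 weeks and the non-senescent group was 3 libraries of control cells, each library being made from 100000 cells. Nothing in the labels tells whether the libraries of a group came from separate cultures.

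The measurement used was the mean signal of a region, the authors' average of normalized read counts over all 6 libraries. It holds no value for a single library, so it has no error, and the depth of each library is not given in the table used here. The authors' own comparison of the groups in that table was not used, and from the mean signal alone the senescent and non-senescent groups cannot be set against each other for any gene. Mean signal ranged over all regions from 0.531 to 187656, with a median of 98.0. Of 14 beta cell markers, 14 had a promoter region, with a median mean signal of 1442. Of 23 markers of other pancreatic, immune, endothelial and stromal cells 15 had one, with a median of 143. Among these were all 4 alpha cell markers (median 268) and all 3 delta and PP cell markers (median 195). The share with a promoter region thus did not set beta cells apart from other islet cells. The share over all protein-coding genes was 78.8%. The lists overlapped, from 183 (IAPP) to 7894 (INS) in beta cell markers and from 43.2 (CELA3A) to 2101 (CPA1) in the others. The values below describe where the exocytosis genes were accessible in the 6 libraries together, and no test was made of any difference between genes.

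Insulin is stored in dense-core granules that fuse with the plasma membrane when glucose raises cytosolic calcium. Fusion is driven by SNARE proteins, which zip a granule-anchored helix to helices of the plasma membrane. Sec1/Munc18 proteins guide their assembly, priming factors make granules ready for release, synaptotagmins sense calcium, and Rab GTPases bring granules to the membrane. Most of these proteins are shared with the synapses of neurons. Many neuronal genes carry the element RE1, which is bound by REST, a repressor that keeps such genes silent in most other tissues and that is scarce in beta cells.

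Of the 46 genes, 45 had a promoter region, which is 97.8% beside 78.8% of all protein-coding genes. STX1A was the exception. In the median gene of the 45, the main promoter region, meaning the one of highest mean signal, had a mean signal of 1099, beside 840 over all genes with a promoter region. Per kb of region width the medians lay closer, at 743 and 686. The median percentile among all genes was 63.1 by mean signal and 54.0 per kb, and the main promoter regions of these genes were wider, with a median of 1293 bp beside 1156 bp. With all genes ranked by mean signal and cut into 5 equal classes, 5 of the 45 genes lay in the lowest class, 29 in the 3 middle ones and 11 in the highest. Taking the strongest region favours genes with more than 1 promoter region, which were more frequent here (57.8%, beside 30.4%). With the region nearest to the canonical start, the median mean signal of the listed genes was 693. No value over all genes was set beside it under that rule.

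The RE1 element is shown first because its share in the promoter regions of these genes, at the mismatch limit used, lay well above that in all promoter regions. It was searched as CAGCACC, any 2 bases and GGACAG on both strands over the whole region, with at most 1 mismatch in the 13 fixed bases. It was found in 6 of 78 promoter regions (7.69%), beside 1.25% of all 20094 promoter regions and 1.29% of those of like mean signal and width. Without a mismatch it was found in 4 of 78 (5.13%), beside 0.299% of all. With at most 2 mismatches it was found in 15 of 78 (19.2%), beside 9.74% of all, so the distance as a ratio was smaller under the looser limit. The sites follow in hg38, read on the strand of the match from 5′ to 3′, with the fixed bases in capitals.
SNAP25, chr20:10219667-10219695, first site: gacctttCAGCACCggGGACAGcggtccg
SNAP25, chr20:10219616-10219644, second site: ccgcgctCAGCACCctGGATAGcaacacc
SYT4: ttcccttCAGCACCtcGGACAGaacacgc
SYT5: ccgcgatCAGCACCcgGGACAGcgccacc
PTPRN: agagcttCAGCACCgcGGACAGcgccagc
CPLX2: gtcctttCAGCACCacGGAGAGcgcaccc
RAB37: agcgtttCAGCACCagGAACAGcgactcc
RIMBP2, distal region: tggcacaGAGCACCaaGGACAGcatgtgt

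The sites in SYT4, SYT5 and PTPRN and the first of the pair in SNAP25 matched at all 13 fixed bases. Counted from 1 at the 5′ end of the element, the others differed by C13T in the second SNAP25 site, by C13G in CPLX2, by G11A in RAB37 and by C1G in RIMBP2. Every site in a promoter region lay downstream of a start site of its gene, in a region annotated at its middle as untranslated exon. The SYT5 site lay 78 bp and the SYT4 site 186 bp after the start of the canonical transcript, and those of CPLX2, SNAP25 and PTPRN lay 321, 851 and 1071 bp after it, with the second SNAP25 site at 800 bp. The RAB37 site lay at -65887 bp from the canonical start (negative values lie before it), near the start of a longer transcript.

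The promoter regions that held these sites had mean signals from 174 to 1579. PTPRN, a granule membrane protein, had its site in a region with a mean signal of 1579, SNAP25 in one with 1112, SYT5 in one with 691 and SYT4 in one with 511. The CPLX2 region had 364 and the RAB37 region 174. In SNAP25, SYT4, CPLX2 and RAB37 the region with the element was not the strongest promoter region of the gene. Presence of the letters is a description of the sequence, and no binding of REST was measured in these libraries.

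Among the 292 distal regions 1 held an RE1 match (0.342%, beside 0.426% of 55158 distal regions of all genes). It lay in an intron of RIMBP2, in the distal region of highest mean signal among the 46 genes. In the promoter sequences of RefSeq (GRCh38.p14, from 250 bases before to 50 bases after the start), which were matched for 35 of the genes, no match was found, beside 0.294% of 15307 promoters. None of the sites shown above lies in these windows. Of the 35 windows 33 were overlapped by an accessible region (94.3%, beside 69.9%) and 25 were covered along their whole length. Those of STX1A and RIMS1 were not overlapped.

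**Figure D1:**
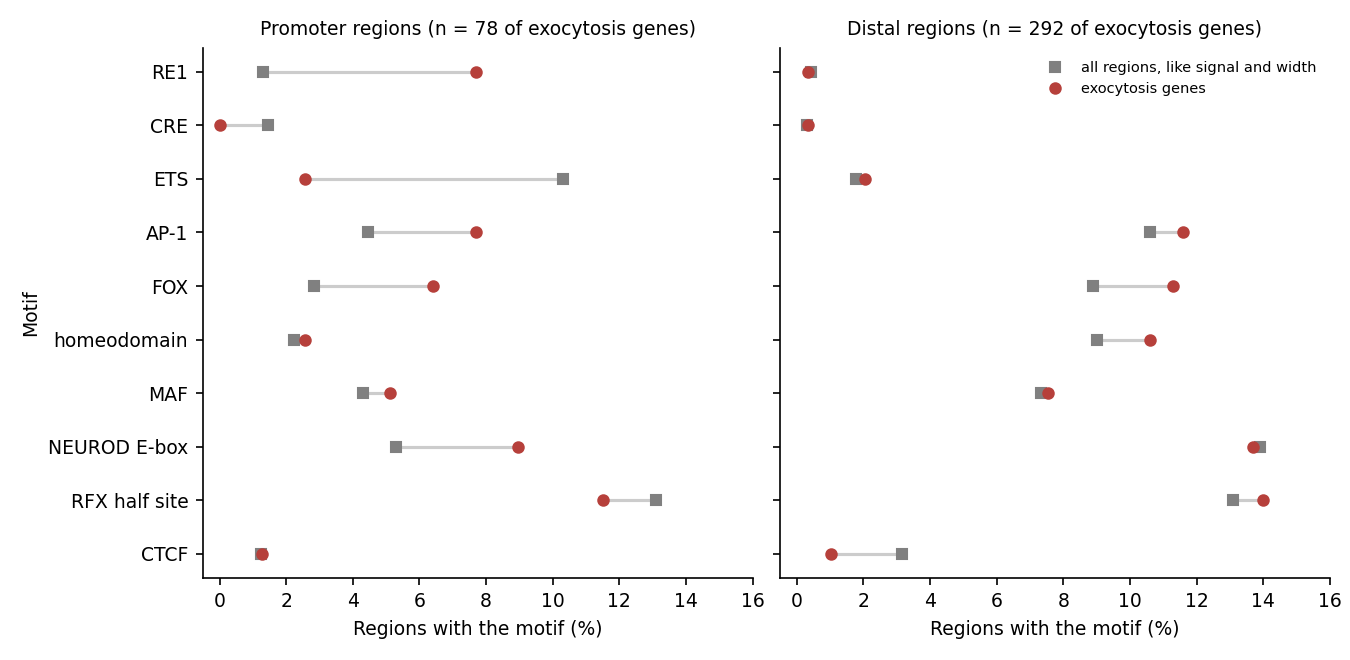
Share of regions holding each motif (percent, horizontal axis) for promoter regions (left, 78 of the exocytosis genes) and distal regions (right, 292), with red circles for the exocytosis genes and grey squares for all regions of the same kind averaged over the same classes of mean signal and width. RE1 was searched over whole regions with at most 1 mismatch and the other motifs in the middle 300 bases, and the widest distances at promoter regions are RE1 (7.69% beside 1.29%) and ETS (2.56% beside 10.3%).

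Other short motifs were sought in the middle 300 bases of each region, on both strands and without mismatch. ETS (CCGGAAG), a motif of housekeeping promoters, was found in 2 of 78 promoter regions, those of RAB27A and SYT11 (2.56%, beside 9.55% of all promoter regions). CRE (TGACGTCA), bound by cAMP-responsive factors, was found in 0 of 78, beside 1.40% of all. These shares hold for the middle of a region, which need not lie at a start. In the RefSeq promoter sequences ETS was present in those of VAMP3, STXBP2, RAB27A and ERC1, and CRE in that of STXBP3. For those sequences no share of ETS or CRE over all promoters was taken. FOX (TGTTTAC) was found in 5, beside 3.04% of all, AP-1 (TGANTCA) in 6, beside 4.42%, and the NEUROD E-box (CAGATGG) in 7, beside 5.47%. With 78 regions these shares rest on few regions each. MAF (TGCTGAC) was found in 4 and the homeodomain core (TAATTA) in 2, at shares within 1 percentage point of those of all promoter regions. The RFX motif (GTTGCC) was found in 9 (11.5%, beside 12.8%), and the CTCF motif (CCAC, any base, AG, any 2 bases and GGC) in 1, that of DOC2A (1.28%, beside 1.18%).

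In distal regions most of these motifs were about as frequent as in distal regions of all genes. The NEUROD E-box was found in 40 of 292 (13.7%, beside 14.1%), the RFX motif in 41 (14.0%, beside 13.3%), AP-1 in 34 (11.6%, beside 10.8%), FOX in 33 (11.3%, beside 8.95%) and the homeodomain core in 31 (10.6%, beside 9.22%). The CTCF motif was found in 3 (1.03%, beside 3.30%).

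Of the SNARE genes, 8 of 9 had a promoter region. SNAP25, the palmitoylated SNARE of the plasma membrane that carries a pair of helices, had 2 promoter regions, with mean signals of 1190 and 1112, the first before its canonical start and the second over it. SNAP23, its widely expressed paralogue, had the highest main promoter region of the SNARE genes, at chr15:42495110-42496105 (996 bp), with a mean signal of 1207 (percentile 67.6). The plasma membrane syntaxins STX3 and STX4 had 1111 and 1002, and STX2 had 277. Of the granule SNAREs, or VAMPs, VAMP8 had 640, in a region near a distant start that it shared with GGCX. VAMP2, the main granule SNARE of beta cells, had 316, in a region shared with another gene. VAMP3 had the lowest, 215 (percentile 15.4), at chr1:7770735-7772051 (1317 bp). All 3 VAMP genes were without a distal region.

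STX1A, which encodes the plasma membrane syntaxin paired with SNAP25 in insulin secretion, had no region within 2 kb of any of its 4 start sites in the table used here. It had 5 distal regions, with mean signals of 447, 132, 213, 2671 and 329. The strongest, in an intron 3625 bp inside the gene, was second among the 292 distal regions and lay above the main promoter regions of all genes of the list except RAB3A. Its middle is shown beside the bases before the RefSeq start of STX1A and, for contrast, those before the start of RAB3A, the gene with the highest promoter region. The sequences are on the strand of the gene, in hg38, with CG pairs, the sites of DNA methylation, in capitals.
RAB3A, 250 bases before the start, chr19:18204043-18204292: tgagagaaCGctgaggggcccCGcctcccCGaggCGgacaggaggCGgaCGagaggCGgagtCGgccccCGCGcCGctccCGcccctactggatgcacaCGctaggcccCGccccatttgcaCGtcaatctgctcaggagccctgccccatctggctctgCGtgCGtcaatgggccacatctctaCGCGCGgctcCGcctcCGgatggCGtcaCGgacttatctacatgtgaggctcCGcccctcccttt
STX1A, 250 bases before the start, chr7:73719670-73719919: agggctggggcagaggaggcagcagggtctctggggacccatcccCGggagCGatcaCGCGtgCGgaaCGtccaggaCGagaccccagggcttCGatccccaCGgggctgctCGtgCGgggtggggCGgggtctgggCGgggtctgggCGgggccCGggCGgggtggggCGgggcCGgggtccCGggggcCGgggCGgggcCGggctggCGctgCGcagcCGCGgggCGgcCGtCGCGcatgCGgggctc
STX1A, middle of the intronic region, chr7:73715856-73716155: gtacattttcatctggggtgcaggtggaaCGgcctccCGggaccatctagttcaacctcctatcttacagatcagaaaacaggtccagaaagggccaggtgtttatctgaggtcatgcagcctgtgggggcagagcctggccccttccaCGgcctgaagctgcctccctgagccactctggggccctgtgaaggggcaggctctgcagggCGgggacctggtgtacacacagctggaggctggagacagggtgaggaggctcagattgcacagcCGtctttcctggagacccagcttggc

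The STX1A sequence before the start had 31 CG pairs and a GC content of 80.8%, more than the 25 pairs and 68.4% of RAB3A, whose promoter was fully covered by a region with a mean signal of 3231. The middle 300 bases of the intronic STX1A region had 5 CG pairs. The main promoter regions of the 45 genes had a median GC content of 62.0%, beside 62.9% over all genes.

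**Figure D2:**
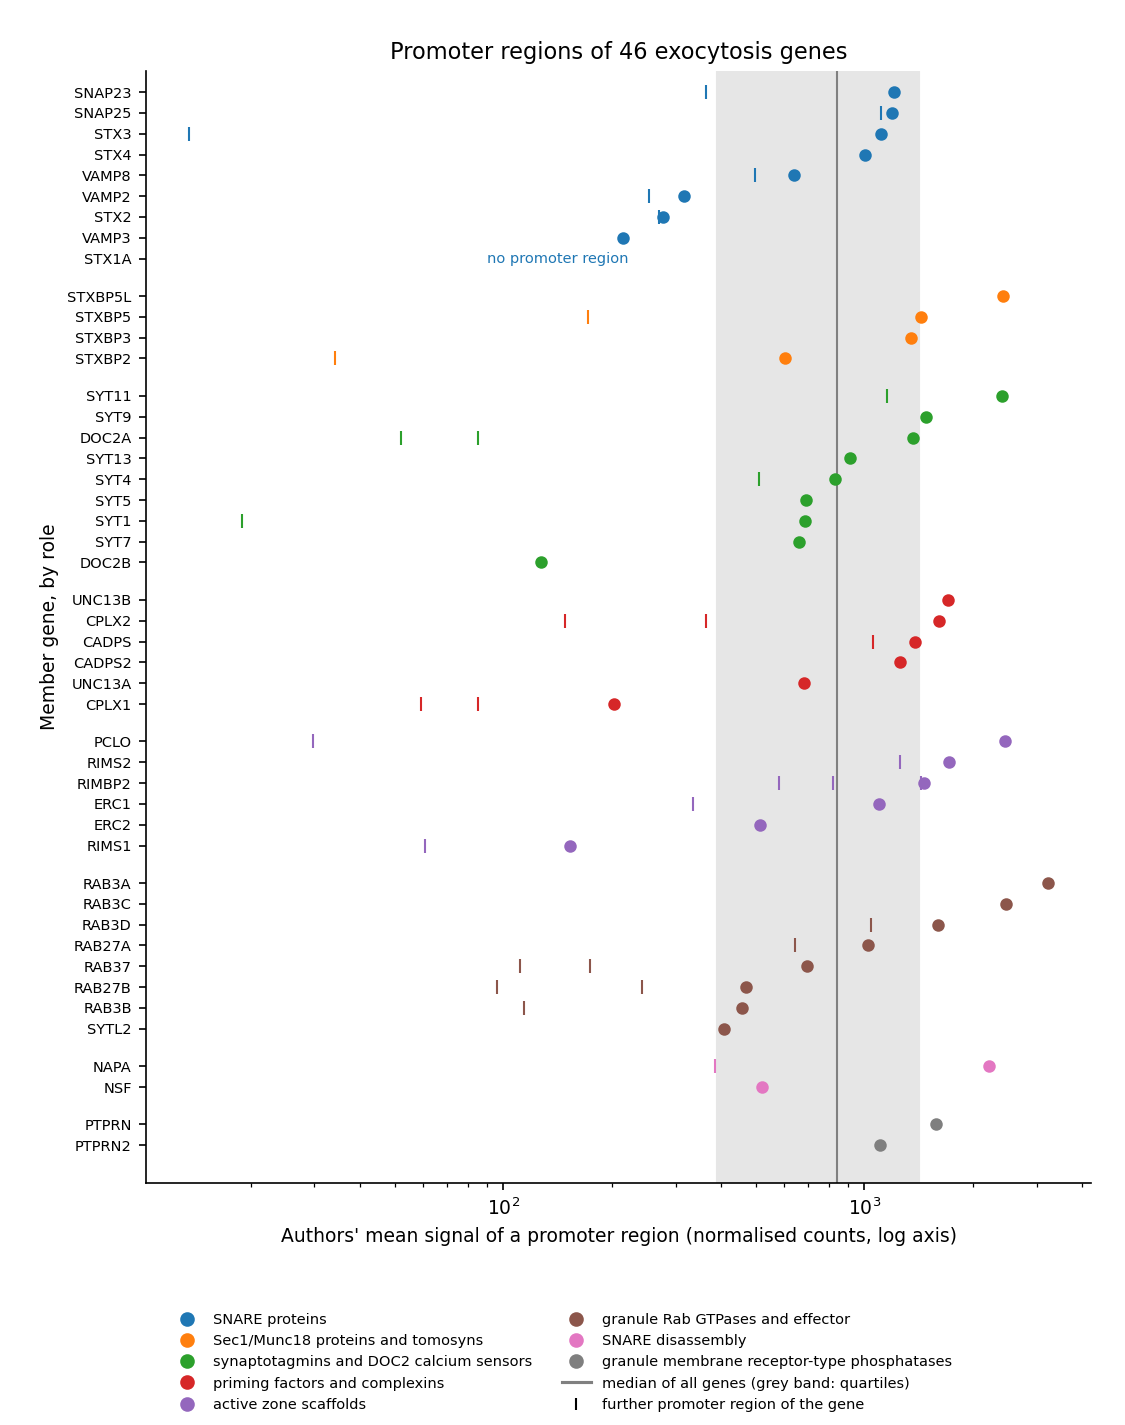
Mean signal of the promoter regions of the 46 genes (horizontal log axis, the authors' normalized counts averaged over the 6 libraries), grouped by role, with a filled circle for the main promoter region, a tick for each further one, a grey line at the median of all genes and a grey band for their quartiles. Main promoter regions reach from 127 in DOC2B to 3231 in RAB3A, and STX1A has none.

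Of the Sec1/Munc18 proteins, which hold syntaxins ready for assembly, STXBP3 had a mean signal of 1344 at its main promoter region and STXBP2 had 602 (percentile 36.6), at chr19:7636745-7637876 (1132 bp), the lowest of this role. The tomosyns, which occupy syntaxin in place of a VAMP and hold back fusion, are encoded by STXBP5 and STXBP5L. STXBP5 had 1432, in a region whose middle lay at -1403 bp from the canonical start, and its other promoter region, nearer to that start, had 172. STXBP5L had 2428 (percentile 93.6), at chr3:120907660-120908803 (1144 bp). STXBP5L had rank 4 among the 45 genes.

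Of the synaptotagmins and DOC2 proteins, most of which sense calcium, SYT11, a synaptotagmin that lacks calcium binding, had 2405 (percentile 93.3), at chr1:155859177-155860764 (1588 bp), in a region shared with GON4L. SYT9, a fast calcium sensor, had 1479. The main region of DOC2A, 1360, was shared with C16orf92 and lay at -10562 bp from its canonical start, and its other promoter regions had 85.1 and 52.1. SYT13 had 911, SYT4 829, SYT5 691 and SYT1 686. The middle of that SYT4 region lay at -1607 bp from the canonical start, and the region over the start had 511. SYT7, a high-affinity sensor of insulin secretion, had 658 and lay below the median of all genes by mean signal. Per kb of width it lay above that median, with 861 beside 686. DOC2B, a sensor that moves to the plasma membrane at low calcium, had 127 (percentile 10.1), at chr17:181607-182109 (503 bp), the lowest main promoter region among the 45 genes.

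The priming factors and complexins had a median of 1316. UNC13B and UNC13A encode Munc13 proteins, which open syntaxin. UNC13B had the highest value of the role, 1708 (percentile 83.2), at chr9:35161427-35162765 (1339 bp), and UNC13A had 682. CADPS and CADPS2, which prime dense-core granules, had 1379 and 1253. The complexins, which clamp assembled SNAREs, differed widely. CPLX2 had 1605, at an upstream start, -74339 bp from the canonical one, and the regions at its canonical start had 364 and 148. CPLX1 had 202 (percentile 14.7), at chr4:802901-803513 (613 bp), in an intron 22922 bp after the canonical start. Its further promoter regions, nearer to that start, had 59.1 and 84.9.

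Of the scaffolds of the release site, PCLO, which encodes piccolo, had 2447 (percentile 93.8), at chr7:83161974-83163266 (1293 bp). RIMS2, the RIM protein known from insulin secretion, had 1715, in a region shared with a further gene, and a second region with 1259. RIMBP2, a partner of RIM and of calcium channels, had 4 promoter regions with 1467, 1431, 818 and 579, the most of any of the 46 genes. The ELKS genes ERC1 and ERC2 had 1099, in a region shared with RAD52, and 515. RIMS1, the paralogue of RIMS2, had 153 (percentile 11.8), at chr6:72182543-72183242 (700 bp), in a coding exon 296342 bp from the canonical start, where the region had 60.9.

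Among the Rab GTPases of granules, RAB3A had the highest promoter region of all 45 genes, 3231 (percentile 97.7), at chr19:18203452-18204733 (1282 bp). RAB3C had 2464 and was second, RAB3D had 1598, and RAB3B had 457. RAB27A, which tethers insulin granules through its effectors, had 1025 and RAB27B had 470. RAB37, found on insulin granules, had 693. SYTL2, a granuphilin-related effector of RAB27, had the lowest value of the role, 408 (percentile 25.9), at chr11:85810637-85811710 (1074 bp). The RAB3 genes thus covered nearly the whole range of the role.

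The proteins that take spent SNARE complexes apart also differed. NAPA, which encodes alpha-SNAP, had 2210 (percentile 91.5), at chr19:47514639-47515794 (1156 bp), and the ATPase NSF had 519 (percentile 32.1), at chr17:46590299-46591715 (1417 bp). The phosphatase-like proteins of the granule membrane, both autoantigens in type 1 diabetes, were PTPRN (IA-2) with 1579 (percentile 80.0), at chr2:219308272-219309934 (1663 bp), and PTPRN2 (phogrin) with 1106 (percentile 63.3), at chr7:158585756-158586403 (648 bp). The PTPRN2 region was the only promoter region of that gene and did not hold its canonical start. Its middle lay in an intron, 1744 bp after that start.

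The mean signal counts reads over a whole region and grows with its width, so the levels of the main promoter regions were also set side by side per kb. On that scale RAB3A was again highest, with 2520 per kb, followed by STXBP5L with 2123, NAPA with 1912 and PCLO with 1893. VAMP3 was lowest, with 163 per kb, below RIMS1 with 219, VAMP2 with 232 and DOC2B with 252. The highest gene of a role differed between the scales for the SNARE proteins (SNAP25, 1267 per kb, beside 1212 in SNAP23) and the calcium sensors (DOC2A, 1719 per kb, beside 1514 in SYT11). It also differed for the phosphatases, where PTPRN2 had 1706 per kb, in a region without its canonical start, and PTPRN had 949. STX3, whose region of 2304 bp was the widest, fell from percentile 63.7 by mean signal to 34.4 per kb. The highest genes of the other roles were the same on both scales. So were the lowest genes, except for the phosphatases and for the priming factors and complexins, of which UNC13A and CPLX1 both had 330 per kb.

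More than 1 promoter region was found for 26 of the 45 genes, which is 57.8% beside 30.4% of all genes with a promoter region. Regions were counted over all start sites of a gene, and no comparison at like number of start sites was made. With canonical start sites alone the 78 promoter regions became 59. The main promoter region held the canonical start in 32 of the 45 genes. It was shared with another protein-coding gene in 6, those of VAMP2, VAMP8, SYT11, DOC2A, RIMS2 and ERC1, so that their values cannot be given to the listed gene alone. The order of the genes carries no error, since no library has a value of its own, and it cannot be said which neighbours in it differ. Of the 10 genes with the highest mean signal, 7 were also among the 10 highest per kb of width.

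Distal regions were more numerous around these genes than around most genes. The median was 4.00 a gene, beside 1.00 over all protein-coding genes, and the mean was 6.35, beside 2.81. At like mean signal of the main promoter region the mean over all genes was 3.20. The genes are long, with a median body of 84.9 kb beside 25.7 kb, and have more sequence nearest to them, here termed territory, with a median of 86.3 kb beside 52.6 kb. Over all genes of like territory the mean was 4.20 distal regions, and the median density was 3.67 regions per 100 kb of territory, beside 2.51. The mean number of distal regions was thus above that of all genes at like promoter signal and at like territory, with the distance smaller at like territory. Much of this mean rested on the 3 genes with most distal regions, which held 101 of the 292.

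The number was unevenly spread, and RIMBP2, PTPRN2 and CADPS together held 101 of the 292 distal regions (34.6%). RIMBP2 had 42, of which the weakest had a mean signal of 9.89 and the strongest 3126, over a territory of 373 kb. PTPRN2 had 30, all inside the gene, with mean signals from 1.83 to 1728. CADPS had 29, with 13.1 to 519. These were followed by SYT13 with 14 and SYT7 with 13, whose territories were 165 and 81.7 kb. At least 10 distal regions were found for 9 of the 46 genes (19.6%, beside 6.08%). STX4, VAMP2, VAMP3, VAMP8, STXBP2, SYT5, RAB3A and DOC2A had none, which is 17.4% beside 32.9% of all genes. Their territories were small, from 5.65 kb in VAMP2 to 22.7 kb in STX4, beside a median of 86.3 kb over the 46 genes.

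**Figure D3:**
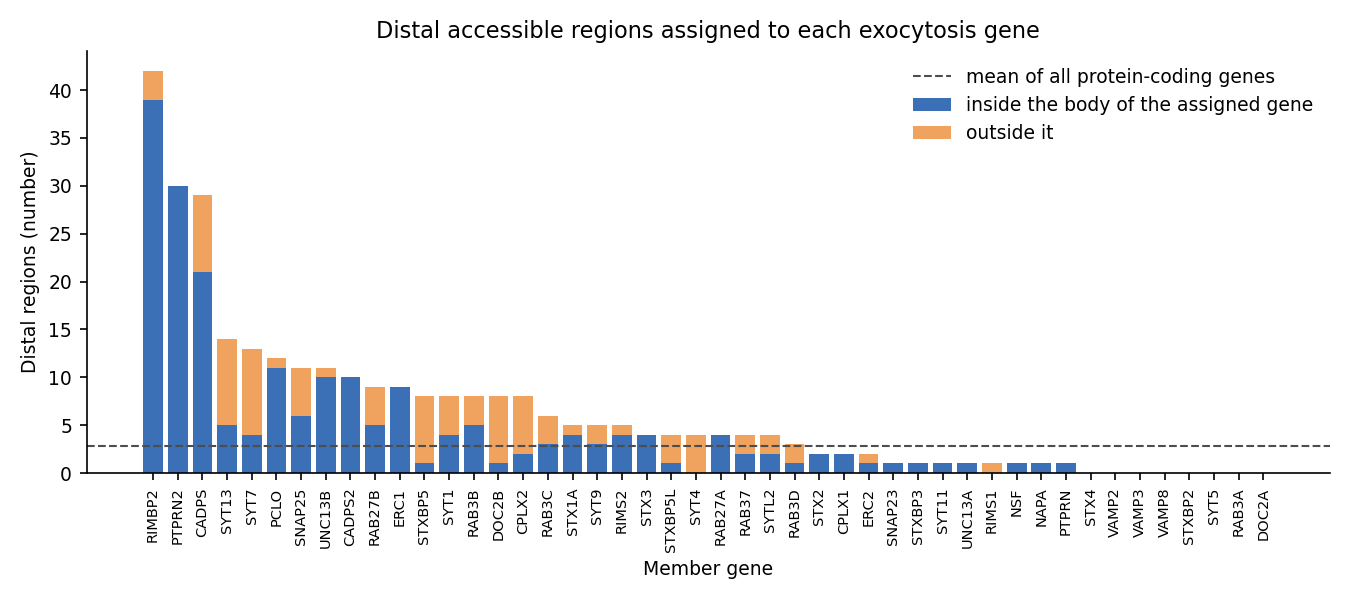
Number of distal regions assigned to each of the 46 genes (bars, vertical axis), in blue for those inside the body of the assigned gene and in orange for those outside it, with a dashed line at the mean of all protein-coding genes, 2.81. RIMBP2 (42), PTPRN2 (30) and CADPS (29) stand apart from the rest, and 8 genes have none.

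Of the 292 distal regions, 203 lay in introns (69.5%), beside 54.8% of the distal regions of all genes, and 203 lay inside the body of the gene to which they were assigned (69.5%), beside 50.6%. A further 81 were intergenic, 6 lay in coding exons and 2 in untranslated exons. The mean signal of the distal regions had a median of 91.1, beside 88.4 over the distal regions of all genes, with quartiles of 34.2 and 225 beside 40.6 and 221. The level of the single distal region thus lay close to that of all genes, while number and position lay further from it. Position was not compared at like gene length, and these genes are long, with a median body of 84.9 kb beside 25.7 kb.

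The distal region of highest mean signal, 3126, lay at chr12:130619257-130620187 (931 bp) in an intron of RIMBP2, 14139 bp inside the gene from the nearest start. That of STX1A at chr7:73715489-73716523 (1035 bp) followed with 2671. The third, 2354, lay at -22308 bp from the start of SYT7, at chr11:61602924-61603989 (1066 bp), the fourth, 1966, in an intron of RAB3B at chr1:51960085-51960927 (843 bp), and the fifth, 1728, in an intron of PTPRN2 at chr7:158581640-158582474 (835 bp). Among the distal regions of all genes their percentiles ran from 98.9 to 99.8. The middle of the RIMBP2 region is shown on the strand of the gene, with its 11 CG pairs in capitals.
RIMBP2, chr12:130619572-130619871: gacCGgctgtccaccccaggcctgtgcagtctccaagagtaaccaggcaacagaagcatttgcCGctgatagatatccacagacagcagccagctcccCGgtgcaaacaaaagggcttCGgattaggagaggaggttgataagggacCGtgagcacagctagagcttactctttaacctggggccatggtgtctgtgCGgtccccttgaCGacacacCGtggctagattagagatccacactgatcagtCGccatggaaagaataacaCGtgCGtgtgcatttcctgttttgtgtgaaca

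In 10 of the 37 genes with both kinds of region, the strongest distal region had a higher mean signal than the main promoter region (27.0%, beside 28.1% of all such genes). The highest ratios were 4.30 in RAB3B and 3.58 in SYT7. RAB3B had a promoter region of 457 and intronic regions of 1966 and 1686. SYT7 had a promoter region of 658, 9 distal regions before its start with mean signals from 182 to 2354, and 4 in its introns with 24.9 to 73.6. ERC2, CPLX1, RIMBP2, STX2, PTPRN2, DOC2B, SYT13 and STX3 were the others, with ratios from 1.05 to 2.52.

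**Figure D4:**
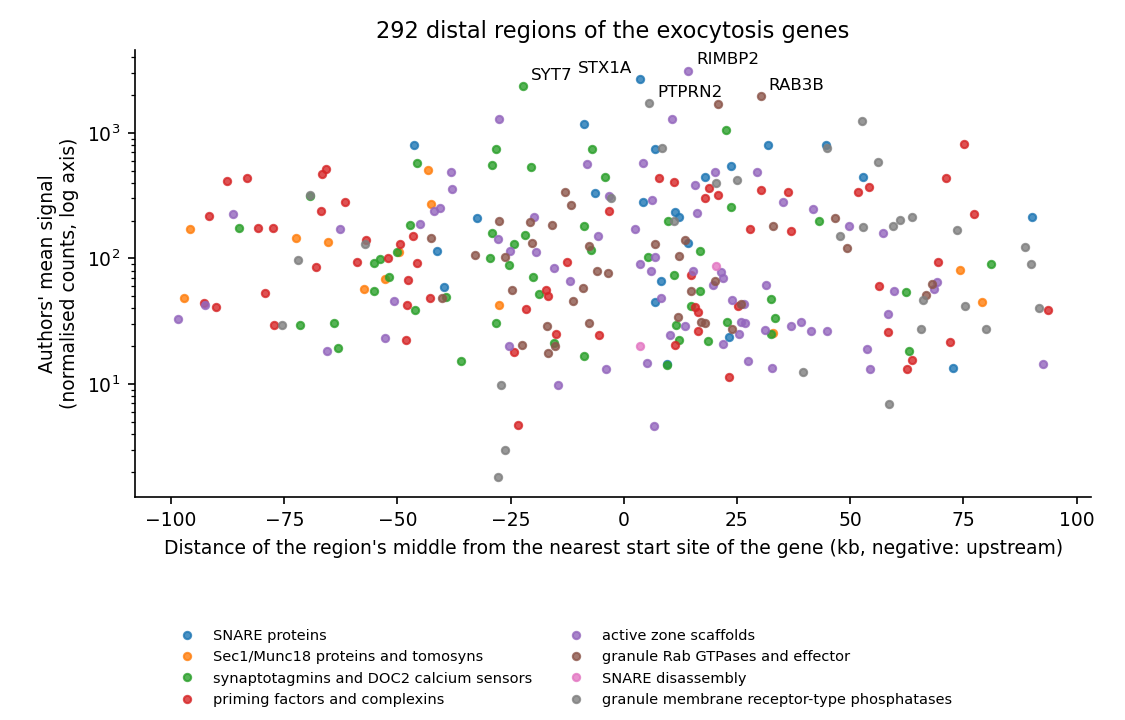
Mean signal (vertical log axis, the authors' normalized counts averaged over the 6 libraries) of the 292 distal regions against the distance of their middle from the nearest start site of the assigned gene (horizontal axis, kb, negative before the start), each point a region and coloured by the role of the gene. The 5 strongest are labelled, and the point of STX1A, 2671, is the strongest within 10 kb of a start.

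For comparison, 60 further genes of vesicle fusion, docking and priming that are not in the list were counted. A promoter region was found for 52 of them (86.7%), with a median mean signal of 777 and a median percentile of 46.7, and the median number of distal regions was 2.00. The highest were RPH3AL (2945), a Rab effector, and the syntaxins STX10 (2423), whose region is shared with IER2, and STX6 (2159). Among those for which no promoter region was found were STX19, SYT3, CPLX3, CPLX4 and the Rab effector genes SYTL3, SYTL4 and SYTL5. SYTL4 encodes granuphilin, an effector of RAB27A on insulin granules.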

How the data were processed

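Accessibility in EndoC-βH3 cells was taken from 3 non-senescent and 3 senescent libraries, as labelled. According to the study's methods, the authors used Trim Galore for trimming and Bowtie2 for alignment to hg38, discarded duplicates and mitochondrial reads, applied the transposase shift, found peaks with MACS2 and counted reads in them. The mean signal in the authors' deposited table is the average of counts normalized by DESeq2 over all 6 libraries. The other 5 columns hold the authors' comparison of the groups (fold change, its standard error, Wald statistic, p-value and adjusted p-value) and were not used, and 0 columns of values per library were left unused. The depth of each library, and so the precision of a value, is not given in the table used here.

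Starts in the table were read as BED, adding 1 base, and regions were assigned with GENCODE 44. The main promoter region of a gene was that of highest mean signal. Like mean signal or territory means the same of 10 equal classes of genes, and for motifs also of 3 width classes. Territory is the sequence outside promoter windows whose nearest start is the gene's, within 100 kb. Sequences were read from hg38 and RefSeq. Full values were given for the highest and lowest gene of each role, genes without a promoter region, the 5 strongest distal regions and the 5 genes with most distal regions. No test was run, since genes are not replicates. The genes, lists and motifs were chosen with earlier results of these data known. The assignment and motif search were tested on simulated data. Python 3.11.15, pandas 2.3.3 and numpy 2.4.6 were used. Alternatives were other windows, distance limits, start sites, signal minima, gene values and mismatch numbers. The result of a gene among the further secretion genes is not reported here but enters their counts.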

Additional observations from a re-analysis of the deposited data

How the results depend on the processing

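No paired analysis was possible because single libraries have no values in the table used here, and for the same reason no library was left out in turn. Of 25 alternative values for 8 results, 18 stayed within a ratio of 1.5 of the value given. The number of distal regions fell from 292 to 181 with the start sites of all genes, since other transcripts then lay nearer, and to 189 when a minimum mean signal of 50 was set. At that minimum 64.7% of the distal regions of the listed genes were kept, beside 68.4% of those of all genes. No number for all protein-coding genes was set beside the count of 181. The median mean signal of main promoter regions was 693, in place of 1099, when the region nearest to the canonical start was used in place of the strongest. That of distal regions was 188 per kb of width, a change of unit, beside 91.1 per region. The number of genes with an RE1 match in any region, 7, became 4 without mismatches, 18 with 2 mismatches and 2 in the middle 300 bases. Genes with a promoter region numbered 44 with windows of 1 or 0.5 kb, and 45 under the other alternatives tried. Nearest starts need not be the gene a distal region acts on.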
